A study of Mus musculus with 6 samples.

Results

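The genes described here are the glycerol-3-phosphate acyltransferases (GPATs) Gpam, Gpat3 and Gpat4, the lysophosphatidate acyltransferases (AGPATs) Agpat2 and Agpat3, the lipins Lpin1, Lpin2 and Lpin3, and the diacylglycerol acyltransferases (DGATs) Dgat1 and Dgat2. They were chosen by gene symbol, as enzymes that build triglyceride, and all 10 were found among the 17924 genes of the RNA-seq table. All 10 were also among the 16252 genes whose mean level was high enough to be tested.

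The study asked whether Nelfb, a subunit of the negative elongation factor complex (NELF) that holds RNA polymerase II in a paused state near promoters, is needed for dermal adipocytes to form. Fibroblasts from the dorsal dermis of newborn (P0) mice on a C57BL/6J background were kept in adipocyte differentiation medium for 14 days, and total RNA was sequenced from biological triplicates of each group. The CTL cells came from Pdgfra-Cre+ mice whose Nelfb alleles were wt/wt or fl/wt, so that some may carry a single floxed allele, and the Nelfb-/- cells came from Pdgfra-Cre+ mice that were Nelfb fl/fl. Both groups therefore carry Pdgfra-Cre, and the floxed alleles are deleted only in cells with a history of Pdgfra expression, as in dermal fibroblasts and adipocyte precursors, so that cells of other lineages in a culture keep Nelfb. Which CTL genotype gave which library, and whether pups were pooled, are not given in the sources used here.

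Triglyceride is made on the endoplasmic reticulum by the glycerol 3-phosphate pathway. A GPAT adds the first acyl chain to glycerol 3-phosphate, an AGPAT adds the next and makes phosphatidate, a lipin removes the phosphate to give diacylglycerol, and a DGAT adds the last acyl chain. Phosphatidate and diacylglycerol are also the precursors of membrane phospholipids. In white fat AGPAT2 and lipin 1 are the best known members of their steps: loss of AGPAT2 causes congenital lipodystrophy in humans, and loss of lipin 1 causes the fatty liver dystrophy phenotype with little fat in mice.

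Of these genes, Lpin1 was the one that fell in Nelfb-/- cells, to a level 2.69-fold below that of CTL cells. Of all genes tested 3.64% fell, so that 1 of 10 is no result about the group. The other 9 did not pass the test, although 8 of them had a negative estimate, with Gpat3 and Agpat2 the nearest to Lpin1 in size. Within the lipins the share of Lpin1 was lower, and the shares of Lpin2 and Lpin3 were higher, in every Nelfb-/- library. The Lpin1 result was sensitive to single libraries, as its call was lost when any of 4 of the 6 libraries was left out.

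Levels are given in CPM, read counts scaled by the authors to a total of 1e+06 per library, and log2 fold changes are for Nelfb-/- relative to CTL on a log2(reads + 1) scale with the standard error (SE). A gene was said to have risen or fallen when it differed by 2-fold or more and its Benjamini-Hochberg adjusted p in limma's test did not exceed 0.05. Depth on the listed genes was 17.2 to 29.4 M reads (M, 1e+06) per library, and 3 reads were worth 0.102 to 0.175 CPM. The targeted gene checked the labels: Nelfb was at 17.3, 19.6 and 22.3 CPM in the CTL libraries (replicates 1 to 3) and at 5.50, 3.90 and 5.55 CPM in the Nelfb-/- libraries (log2 fold change -1.99, SE 0.22, adjusted p = 0.0050). CTL replicate 3 and Nelfb-/- replicate 1 stood apart from the other libraries of their groups on the second principal component, which held 27.7% of the variance. For this reason values are also given below without these libraries where that matters. Leaving out both was an alternative chosen after the data were seen. It takes away the library that stood apart in each group, so its small adjusted p-values are no independent support wherever they are given below.

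Adipocyte markers were abundant in both groups, but marker levels of several cell types differed between them. The summed level of 12 adipocyte markers was 19896 to 33350 CPM in CTL and at 12520 to 23812 CPM in Nelfb-/- libraries, lowest in Nelfb-/- replicate 1 and, among CTL libraries, in replicate 3. Of these 12 markers 3 fell and 1, Lep, rose. The summed level of 8 macrophage markers was 206 to 743 CPM in CTL and at 2052 to 6453 CPM in Nelfb-/- libraries, with 7 of 8 past the test, and that of 12 fibroblast and precursor markers was 4113 to 17325 against 9147 to 34574 CPM, with 2 of the 11 tested past it. Markers of skeletal muscle (6 of 6 tested rose) and of Schwann cells and melanocytes (5 of 6) were also higher in Nelfb-/- cells, at summed levels of at most 109 and 120 CPM. Keratinocyte markers summed to 2.75 to 3.17 CPM in CTL and 6.69 to 14.6 CPM in Nelfb-/- libraries, and 1 of 4 tested rose. Endothelial markers summed to 6.70 to 10.4 CPM in CTL and 7.63 to 21.3 CPM in Nelfb-/- libraries, and 1 of 5 rose. No marker measured was at 0 in every library of a group. The part of these differences in the results below was not tested, and in bulk RNA fewer adipocytes and less RNA of a gene per adipocyte cannot be told apart.

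To show the sequence next to the start site of Lpin1, the gene that fell, beside those of the other lipins, which did not pass the test, the 250 bases before the start site of Lpin1, Lpin2 and Lpin3 are printed 5′ to 3′ from RefSeq (GRCm38.p6), with motif matches in capitals. They lie at chr12:16610967-16611216 on the minus strand, at chr17:71183282-71183531 on the plus strand and at chr2:160880420-160880669 on the plus strand. The span of Lpin1 and of Lpin2 in the authors' table reaches further upstream than the start site used here, so that their windows lie inside those spans, while the Lpin3 window lies directly upstream of its gene. In GENCODE vM21 Lpin1 begins at the start site used here, so exons further upstream in the authors' annotation, if any, are not known here. Lpin2 and Lpin3 have further start sites in RefSeq, and the one nearest to the gene start in the authors' table is shown.
Lpin1: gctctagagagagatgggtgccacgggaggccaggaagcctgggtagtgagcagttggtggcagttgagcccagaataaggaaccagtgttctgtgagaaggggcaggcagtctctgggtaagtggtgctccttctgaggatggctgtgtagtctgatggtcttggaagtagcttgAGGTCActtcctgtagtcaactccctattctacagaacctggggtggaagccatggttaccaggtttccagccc
Lpin2: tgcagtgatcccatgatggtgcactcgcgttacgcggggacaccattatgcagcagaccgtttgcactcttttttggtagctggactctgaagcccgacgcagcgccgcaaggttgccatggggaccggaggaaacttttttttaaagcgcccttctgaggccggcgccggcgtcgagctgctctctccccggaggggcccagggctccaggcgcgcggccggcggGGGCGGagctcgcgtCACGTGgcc
Lpin3: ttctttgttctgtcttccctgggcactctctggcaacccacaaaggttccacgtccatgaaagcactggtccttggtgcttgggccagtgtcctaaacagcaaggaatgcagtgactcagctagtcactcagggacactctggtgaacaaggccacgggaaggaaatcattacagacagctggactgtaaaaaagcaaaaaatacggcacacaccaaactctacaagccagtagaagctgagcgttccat

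Both strands were searched for 5 motifs, namely the GC box GGGCGG, the CCAAT box CCAAT, the TATA box TATAAA, the E-box CACGTG and the nuclear receptor half-site AGGTCA, none of which overlapped here. The Lpin1 window held a single match, the half-site from 74 to 69 bases before the start site, a motif found in 14.0% of 32536 mouse promoter windows of the same length. The Lpin2 window held a GC box from 24 to 19 bases and an E-box from 9 to 4 bases before the start site, found in 33.0% and 6.04% of all windows. The Lpin3 window held none of the 5 motifs. Its GC content was 49.6%, against 54.8% for Lpin1, 65.2% for Lpin2 and a median of 52.4% over all windows. These matches describe letters only, since no binding was measured in the data used here. Of the 10 genes 7 had a promoter entry, and Gpat4, Dgat1 and Dgat2 had none.

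GPATs start the pathway. Gpam (chr19:55067268-55127238, minus strand), which encodes the mitochondrial GPAT1, was at 729, 681 and 340 CPM in CTL replicates 1 to 3 and at 592, 469 and 429 CPM in Nelfb-/- replicates 1 to 3. All Nelfb-/- values lay within the CTL range (log2 fold change -0.17, SE 0.33, 95% interval -0.95 to 0.62, adjusted p = 0.76). The estimate for Gpam was -0.52 (adjusted p = 0.11) without CTL replicate 3 and 0.03 (adjusted p = 0.97) without CTL replicate 1. Gpat3 (chr5:100845713-100899102, plus strand), an endoplasmic reticulum GPAT that is induced when adipocytes differentiate, was at 69.5, 57.1 and 65.0 CPM in CTL and at 10.8, 62.3 and 43.0 CPM in Nelfb-/- libraries. The low value of Nelfb-/- replicate 1 decided its estimate, since the log2 fold change of -1.05 (SE 0.61, 95% interval -2.52 to 0.42, adjusted p = 0.29) was -0.30 without that library. Gpat4 (chr8:23171265-23208346, minus strand), the other GPAT of the endoplasmic reticulum, was at 162, 143 and 88.2 CPM in CTL and at 109, 117 and 112 CPM in Nelfb-/- libraries. Its groups overlapped (log2 fold change -0.18, SE 0.24, 95% interval -0.74 to 0.39, adjusted p = 0.65), and the estimate was -0.44 (adjusted p = 0.055) without CTL replicate 3 and -0.00090 (adjusted p = 0.999) without CTL replicate 1. Of the 3502 exon bases of Gpat3, 1052 also lie in exons of the antisense gene 4930458D05Rik and 259 in exons of Gm42987 on the same strand. The strand setting of the counting is not given in the sources used here and would not separate the second overlap, so the level of Gpat3 is uncertain.

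AGPATs make phosphatidate. Agpat2 (chr2:26593057-26604417, minus strand), the main AGPAT of adipocytes, was at 1087, 889 and 835 CPM in CTL and at 217, 717 and 594 CPM in Nelfb-/- libraries. Every Nelfb-/- library was below every CTL library, but Nelfb-/- replicate 1 was far below the other Nelfb-/- libraries, and the log2 fold change of -1.04 (SE 0.45, 95% interval -2.13 to 0.04) did not pass the test (adjusted p = 0.17). Without that library the estimate was -0.51 (adjusted p = 0.14). Of the 2130 exon bases of Agpat2, 64 also lie in exons of Egfl7 on the other strand, so that a part of its reads could belong to that gene. Agpat3 (chr10:78269178-78352489, minus strand), a widely expressed acyltransferase, was at 152, 146 and 165 CPM in CTL and at 129, 170 and 162 CPM in Nelfb-/- libraries. Here the groups overlapped, and the 95% interval of the log2 fold change (-0.01, SE 0.15) ran from -0.38 to 0.35, so that a 2-fold change in either direction lay outside it (adjusted p = 0.96).

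Lipins remove the phosphate of phosphatidate, and lipin 1 also acts in the nucleus as a coregulator of transcription. Lpin1 (chr12:16535669-16646966, minus strand) was at 709, 740 and 384 CPM in CTL replicates 1 to 3 and at 303, 193 and 177 CPM in Nelfb-/- replicates 1 to 3. The lowest CTL library, replicate 3, was still above the highest Nelfb-/- library, replicate 1, and the mean was 611 ± 197 CPM (SD, n = 3) in CTL and 224 ± 68.4 CPM (SD, n = 3) in Nelfb-/- cells. Its log2 fold change was -1.43 (SE 0.33, 95% interval -2.22 to -0.64, adjusted p = 0.034). The call was lost without CTL replicate 1 (-1.29, adjusted p = 0.12), CTL replicate 2 (-1.26, adjusted p = 0.12), Nelfb-/- replicate 2 (-1.34, adjusted p = 0.11) or Nelfb-/- replicate 3 (-1.28, adjusted p = 0.13), all in limma. It was kept without CTL replicate 3 (-1.73, adjusted p = 0.012), without Nelfb-/- replicate 1 (-1.66, adjusted p = 0.026) and without both (-1.97, adjusted p = 3.9e-05), the last an alternative chosen after the data were seen.

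Lpin2 (chr17:71182560-71249817, plus strand), the main lipin of liver, was at 23.0, 22.7 and 19.9 CPM in CTL and at 40.0, 17.9 and 22.5 CPM in Nelfb-/- libraries. It was the only gene of the 10 with a positive estimate (log2 fold change 0.21, SE 0.30, 95% interval -0.50 to 0.93, adjusted p = 0.66), which came from the high value of Nelfb-/- replicate 1 and was -0.12 without that library. Lpin3 (chr2:160880670-160906002, plus strand) was at 12.5, 6.95 and 5.37 CPM in CTL and at 9.25, 4.13 and 4.69 CPM in Nelfb-/- libraries. The groups overlapped (log2 fold change -0.46, SE 0.43, 95% interval -1.49 to 0.57, adjusted p = 0.50). The estimate depended on the libraries: it was -0.11 (adjusted p = 0.90) without CTL replicate 1, -0.24 (adjusted p = 0.81) without Nelfb-/- replicate 2, and -1.08 (adjusted p = 0.020), past the threshold, without both CTL replicate 3 and Nelfb-/- replicate 1.

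DGATs complete the molecule. Dgat1 (chr15:76502015-76511953, minus strand), whose enzyme also re-esterifies fatty acids released by lipolysis, was at 193, 206 and 90.4 CPM in CTL and at 68.7, 124 and 99.1 CPM in Nelfb-/- libraries. CTL replicate 3 lay among the Nelfb-/- libraries (log2 fold change -0.70, SE 0.37, 95% interval -1.59 to 0.19, adjusted p = 0.25). Without CTL replicate 3 it was -1.08 (adjusted p = 0.040), past the threshold. Dgat2 (chr7:99153658-99182719, minus strand), which favours newly made fatty acids, was at 138, 131 and 104 CPM in CTL and at 40.7, 124 and 108 CPM in Nelfb-/- libraries. Only Nelfb-/- replicate 1 was below the CTL range (log2 fold change -0.60, SE 0.42, 95% interval -1.60 to 0.41, adjusted p = 0.37), and the estimate without it was -0.10.

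**Figure D1:**
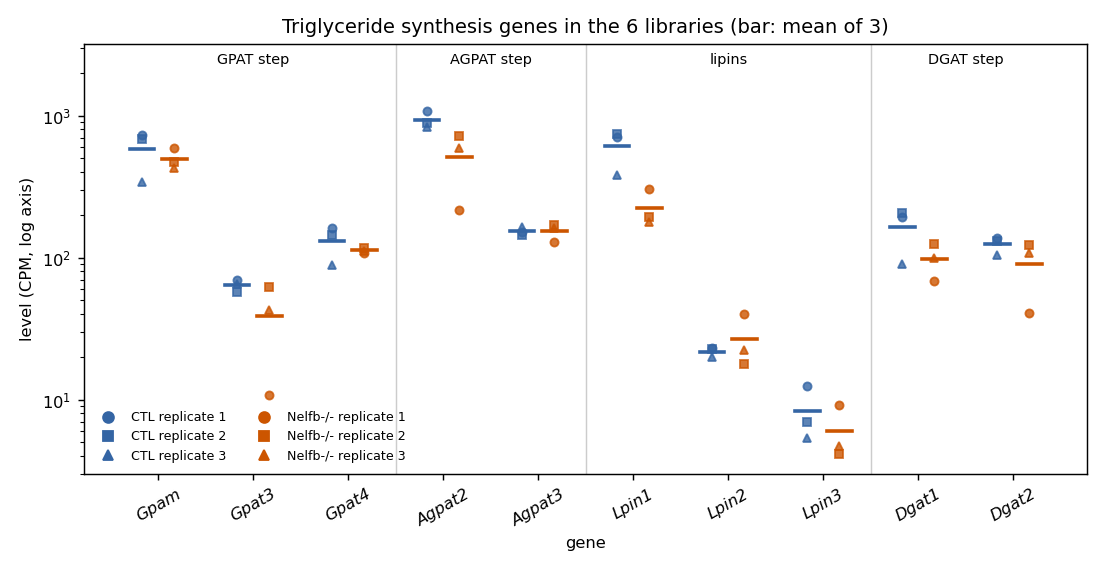
Level of each gene in CPM (log axis) in the 3 CTL (blue) and 3 Nelfb-/- (orange) libraries, with the marker shape giving the replicate and the bar the mean of 3. The libraries of the groups do not overlap for Agpat2 and Lpin1, and Nelfb-/- replicate 1 (orange circles) is the lowest of the 6 libraries for Gpat3, Agpat2, Agpat3, Dgat1 and Dgat2.

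Over the 10 genes, 1 fell and 0 rose by limma's test, and 1 had an unadjusted p under 0.05. Over all genes tested 3.64% fell and 7.58% rose (11.2% in either direction, and 15.8% with no limit on the fold, where again Lpin1 alone passed among the 10). In 2 of the 10, Agpat2 and Lpin1, every Nelfb-/- library was below every CTL library, and in none was every one above. Such separation was found for 16.1% of all genes tested in the lower and 22% in the higher direction (38.1% in all). The estimate was negative for 9 of the 10, with a median log2 fold change of -0.53, against 45.4% of all genes and a median of 0.07. The median of the 10 was -0.30 without Nelfb-/- replicate 1 and -0.32 without CTL replicate 1, where 8 of the 10 were negative. It was -0.72 without CTL replicate 3, where 8 of the 10 were also negative. For 5 of the 10 the lowest of the 6 libraries was Nelfb-/- replicate 1, as for 19.96% of all genes tested, and for 8 of the 10 the lowest CTL library was replicate 3, as for 39.3% of all genes tested. The summed level of the 12 adipocyte markers was also lowest of each group in these libraries, though not the level of every marker. For Gpam (592), Lpin1 (303), Lpin2 (40.0) and Lpin3 (9.25 CPM), however, Nelfb-/- replicate 1 was the highest Nelfb-/- library. Whether these patterns are tied to the marker levels was not tested. The plot of changes shows how wide the intervals were and how far each estimate moved with single libraries.

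**Figure D2:**
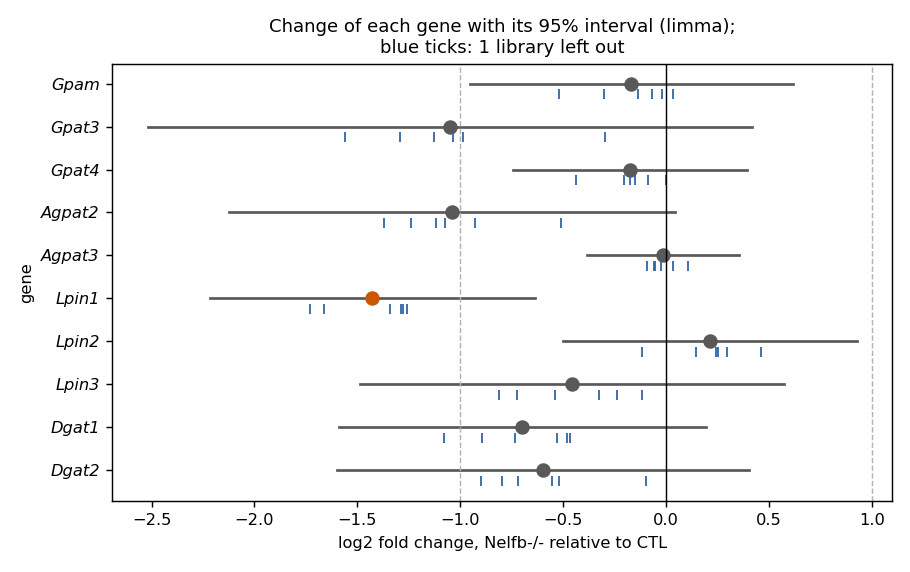
Log2 fold change of each gene in Nelfb-/- relative to CTL cells (dot, orange where past the threshold) with its 95% interval (line), and the estimates with each library left out (blue ticks). Dashed lines mark a 2-fold change, and the interval of Lpin1, from -2.22 to -0.64, is the only one that does not hold 0.

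To relate the genes to one another, levels were divided by the summed length of the annotated exons, in CPM per kilobase. For Lpin1 the annotation used covers less than the span in the authors' table, so its exon length may be incomplete, which also bears on the lipin shares below. In CTL cells Agpat2 was highest at 440 ± 62.3 CPM per kilobase (SD, n = 3), with every library above those of the next gene. Gpam (87.6), Lpin1 (63.2), Dgat1 (53.4) and Dgat2 (40.3 CPM per kilobase) followed, each overlapping its neighbour. Agpat3 (19.8), Gpat4 (19.6) and Gpat3 (18.2 CPM per kilobase) came next and overlapped each other, apart from Dgat2 above and from Lpin3 (2.24) and Lpin2 (1.79 CPM per kilobase) below. In Nelfb-/- cells Agpat2 (239 ± 122 CPM per kilobase) and Gpam (74.5) were again at the top and did not overlap. Lpin1 was at 23.2 CPM per kilobase and came after Dgat1 (31.8) and Dgat2 (29.4), overlapping Dgat2 above and Agpat3 (19.7 CPM per kilobase) below.

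Within a step, the share of each gene was taken in the summed level per kilobase of those of the 10 genes that act there. Lpin1 made up 93.3%, 95.3% and 92.8% of the lipin level in CTL replicates 1 to 3 and 84.4%, 88.6% and 85.5% in Nelfb-/- replicates 1 to 3. The mean share was thus 93.8 ± 1.35% in CTL and 86.2 ± 2.14% in Nelfb-/- cells, without overlap. The share of Lpin2 was 2.83 ± 0.84% in CTL and 7.96 ± 1.28% in Nelfb-/- cells, and that of Lpin3 was 3.35 ± 0.99% and 5.88 ± 0.90% (SD, n = 3), both higher in every Nelfb-/- library. Lpin1 still made up most of the lipin transcripts in every library. Of the sum of Agpat2 and Agpat3, Agpat2 took 95.6 ± 0.72% in CTL and 91.0 ± 4.31% in Nelfb-/- cells, again without overlap, with the lowest share, 86.1%, in Nelfb-/- replicate 1. The difference of -4.62 percentage points was -2.15 without that library. This sum leaves out other AGPATs of the table, among them Agpat1, which at 34.7 CPM per kilobase in CTL and 29.9 in Nelfb-/- cells was above Agpat3. Of the sum over all 5 AGPATs of the table, a comparison added after the data were seen, Agpat2 took 87.0 ± 1.66% in CTL and 77.3 ± 10.5% in Nelfb-/- cells, also without overlap. That difference of -9.71 percentage points was -3.67 without Nelfb-/- replicate 1. The shares of the GPATs and DGATs overlapped between the groups: Gpam took 68.7 ± 6.15% of the GPAT level in CTL and 72.5 ± 8.38% in Nelfb-/- cells, and Dgat1 took 55.6 ± 7.79% and 53.8 ± 8.01% of the DGAT level. These shares are a description and were not tested, and as shares of a sum they rise for one gene when they fall for another.

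**Figure D3:**
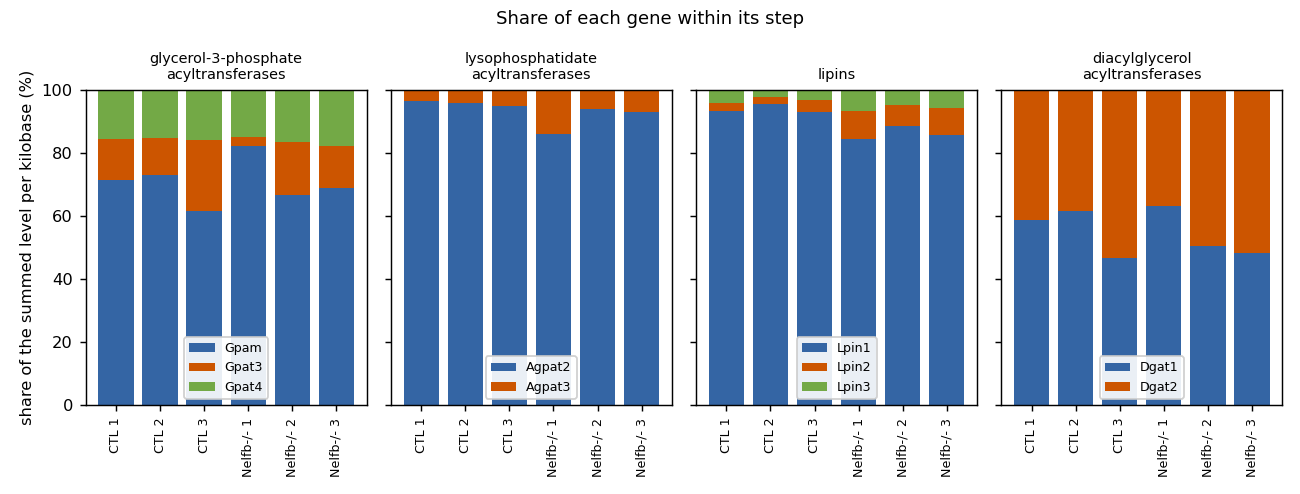
Share (%) of each gene in the summed CPM per kilobase of its step, 1 stacked bar per library, for the GPATs, AGPATs, lipins and DGATs among the 10 genes (the AGPAT bars hold Agpat2 and Agpat3 only). Lpin1 takes at least 92.8% of the lipin level in the CTL bars and at most 88.6% in the Nelfb-/- bars, while the GPAT and DGAT shares overlap.

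Ratios within a library do not depend on how libraries were scaled to each other. The level of Lpin1 was divided by that of each of the other 9 genes. Lpin1 and Gpam were at nearly the same CPM in CTL cells, with ratios of 0.972, 1.09 and 1.13 in replicates 1 to 3. In Nelfb-/- replicates 1 to 3 the ratios were 0.511, 0.412 and 0.413, so that Lpin1 was lower relative to Gpam in every one (difference of mean log2 ratios -1.26). The ratio to Gpat4 (-1.25), to Lpin2 (-1.64) and to Lpin3 (-0.97) was also lower in every Nelfb-/- library. The other 5 ratios overlapped, and for Gpat3, Agpat2, Dgat1 and Dgat2 the ratio in Nelfb-/- replicate 1 was above every CTL library. As the ratios were chosen after the values were seen, they are given as a description with no test.

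**Figure D4:**
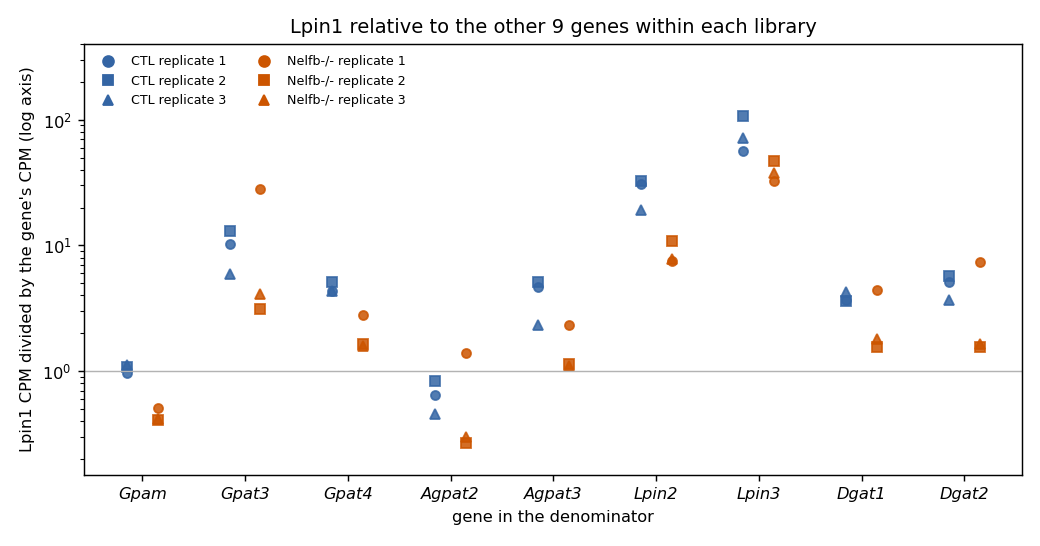
Lpin1 CPM divided by the CPM of each other gene in the same library (log axis), for 3 CTL (blue) and 3 Nelfb-/- (orange) libraries with the marker shape giving the replicate. The groups are apart for Gpam, Gpat4, Lpin2 and Lpin3, and Nelfb-/- replicate 1 (orange circles) lies above the CTL points for Gpat3, Agpat2, Dgat1 and Dgat2.

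Set against adipocyte markers, 9 of the 10 genes overlapped between the groups. The share of all genes that overlap on this scale was not computed, so this count is no result about the 10. Per 1000 CPM of summed adipocyte markers, Lpin1 was at 21.3, 24.0 and 19.3 CPM in CTL replicates 1 to 3. It was at 8.11 and 9.16 CPM in Nelfb-/- replicates 2 and 3, below all CTL libraries, but at 24.2 CPM in Nelfb-/- replicate 1, above them. On the same scale Agpat2 was at 32.6, 28.9 and 42.0 CPM in CTL and at 17.4, 30.1 and 30.8 CPM in Nelfb-/- libraries. Dgat1 ranged from 4.55 to 6.70 CPM in CTL and from 5.13 to 5.48 CPM in Nelfb-/- libraries, inside the CTL range. Gpat4 was the exception to the overlap, at 4.85, 4.66 and 4.43 CPM in CTL and higher, at 8.67, 4.90 and 5.80 CPM, in Nelfb-/- libraries. Gpam was at 21.9, 22.1 and 17.1 CPM in CTL and at 47.3, 19.7 and 22.2 CPM in Nelfb-/- libraries, with replicate 1 far above the rest. Some adipocyte markers were themselves past the threshold, so this scale is not independent of the deletion. It also depends on Fabp4 more than on any other marker. Fabp4 made up 17827 of 33350 CPM of the sum in CTL replicate 1 and 4571 of 12520 CPM in Nelfb-/- replicate 1.

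Among 13577 protein-coding genes, those whose log2 levels followed Lpin1 most closely over the 6 libraries were Rabl6, Zfp330 and Rbpms, each at Pearson r = 0.999. The 6 points share their groups and libraries, and with so many genes compared such values are a description only. Rbpms, which encodes an RNA-binding protein, was at 156, 169 and 94.8 CPM in CTL and at 82.2, 54.6 and 53.6 CPM in Nelfb-/- libraries, and fell (log2 fold change -1.13, SE 0.28, adjusted p = 0.041). Rabl6 (-0.36, SE 0.13, adjusted p = 0.11) and Zfp330 (-0.62, SE 0.17, adjusted p = 0.056) followed the same order of libraries at smaller amplitude and did not pass the test.

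The enzymes around these steps were taken from 5 lists with 54 genes, of which 49 were in the table and 46 were tested. Of the 46, 2 rose and 1 fell by limma's test, against 11.2% of all genes in either direction, and the median log2 fold change was 0.14. Medians of the lists below moved with single libraries: that of the other acyltransferases and phosphatases was 0.06 without CTL replicate 3, that of the phospholipid branch -0.01 without Nelfb-/- replicate 1, and that of the kinases -0.03 without CTL replicate 2 and -0.57 without CTL replicate 3. The list of other acyltransferases and phosphatases, such as the remaining AGPATs and the phospholipid phosphatases, had 0 of 9 tested past the threshold in either direction, with a median of 0.28. Its genes with the largest estimates were Plpp2 (-0.82, SE 0.26, adjusted p = 0.081), Plpp1 (0.60, SE 0.54, adjusted p = 0.49) and Tmem68 (0.59, SE 0.15, adjusted p = 0.042, under 2-fold). Plpp2 passed without Nelfb-/- replicate 1 (-1.05, adjusted p = 0.025) and under quantile normalization (-1.03, adjusted p = 0.049). Plpp1 ranged from 0.28 without Nelfb-/- replicate 3 to 1.08 without CTL replicate 3. It passed without both CTL replicate 3 and Nelfb-/- replicate 1 (1.54, adjusted p = 0.00022), an alternative chosen after the data were seen. Plpp1 and Plpp2 encode phosphatases that act on lipid phosphates at membranes, and TMEM68 is an acyltransferase.

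Among 3 partners of these enzymes, 0 passed the threshold (median -0.05), against 11.2% of all genes tested. Bscl2, which encodes seipin, the lipid droplet protein that binds lipin 1 and AGPAT2, was at 135, 134 and 116 CPM in CTL and at 65.0, 83.2 and 77.9 CPM in Nelfb-/- libraries. Every Nelfb-/- library was lower, and the log2 fold change of -0.77 (SE 0.15, adjusted p = 0.019) was under the 2-fold limit. Ctdnep1 and Cnep1r1 encode the phosphatase that dephosphorylates lipins and its regulatory subunit. Their log2 fold changes were -0.05 (SE 0.14, adjusted p = 0.84) and 0.48 (SE 0.18, adjusted p = 0.12).

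Among the genes that supply glycerol 3-phosphate and acyl-CoA, all 8 tested had a positive estimate, as had 54.6% of all genes tested, and 1 rose (median 0.61), against 7.58% of all genes. Without CTL replicate 3, Nelfb-/- replicate 2 or Nelfb-/- replicate 3, 7 of the 8 were positive. The median was 0.50 without CTL replicate 2 and 0.80 without CTL replicate 3, its extremes with 1 library left out. Of the 8, 4 overlapped between the groups, and in the other 4 every Nelfb-/- library was above every CTL library, as for 22% of all genes tested. The estimates of Gpd2 (0.03) and Acsl1 (0.06) were near 0. The gene that rose was Gpd1l, a relative of glycerol-3-phosphate dehydrogenase, at 31.1, 31.4 and 23.9 CPM in CTL and at 58.7, 59.5 and 55.2 CPM in Nelfb-/- libraries (log2 fold change 1.01, SE 0.15, adjusted p = 0.010). It stood at the fold limit, and was 0.89 without CTL replicate 3 and 0.99 without Nelfb-/- replicate 2, and its adjusted p was 0.057 without Nelfb-/- replicate 3. Gpd1, the dehydrogenase that makes glycerol 3-phosphate in adipocytes, was at 1275, 1031 and 1670 CPM in CTL and at 1088, 3922 and 3151 CPM in Nelfb-/- libraries. Nelfb-/- replicate 1 lay in the CTL range, and the gene did not pass the test (0.87, SE 0.52, adjusted p = 0.30). Without that library it passed (1.44, adjusted p = 0.035), and without CTL replicate 3 as well it was at 1.62 (adjusted p = 0.00069), while without Nelfb-/- replicate 2 it was at 0.51 (adjusted p = 0.61). Acsl5, an acyl-CoA synthetase, had an estimate of 0.70 (SE 0.21, adjusted p = 0.073).

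Diacylglycerol kinases run the lipin reaction in reverse, from diacylglycerol to phosphatidate. Of 6 tested, 1 rose and 1 fell (median -0.23), against 7.58% and 3.64% of all genes tested, so that these counts are no result about the list. Dgkz was at 19.9, 16.1 and 16.6 CPM in CTL and at 80.8, 34.6 and 44.6 CPM in Nelfb-/- libraries, all above CTL and highest in replicate 1 (log2 fold change 1.52, SE 0.31, adjusted p = 0.025). Dgkd was at 206, 226 and 127 CPM in CTL and at 107, 78.6 and 77.4 CPM in Nelfb-/- libraries, all below CTL (log2 fold change -1.06, SE 0.26, adjusted p = 0.039). The call of Dgkd was lost without CTL replicate 1, CTL replicate 2, Nelfb-/- replicate 2 or Nelfb-/- replicate 3 (adjusted p 0.12 to 0.15) and with no abundance trend in the variance (0.058), and that of Dgkz without CTL replicate 1, CTL replicate 2 or Nelfb-/- replicate 3 (0.069 to 0.092) and with no moderation of the variance (0.092). Dgkq did not pass (-0.37, SE 0.37, adjusted p = 0.53), and was at -0.70 without Nelfb-/- replicate 1, -0.13 without Nelfb-/- replicate 2 and -0.96 (adjusted p = 0.0030, under 2-fold) without both CTL replicate 3 and Nelfb-/- replicate 1. Macrophage marker levels, also highest in Nelfb-/- replicate 1, moved with Dgkz, and their part in it was not tested.

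The phospholipid branch, which turns phosphatidate and diacylglycerol into membrane lipids, had 0 of 20 tested past the threshold, against 11.2% of all genes tested, with a median of 0.17. With no fold limit 4 of the 20 passed, against 15.8% of all genes. Every Nelfb-/- library was above every CTL library for 6 of the 20 and below for 2, against 22% and 16.1% of all genes. Pcyt2, whose enzyme activates phosphoethanolamine, was at 42.3, 43.7 and 46.8 CPM in CTL and at 24.4, 27.0 and 27.0 CPM in Nelfb-/- libraries, lower in all 3 but under the 2-fold limit (-0.76, SE 0.12, adjusted p = 0.013). Pgs1, which acts on the way to cardiolipin, was at 27.6, 28.5 and 24.3 CPM in CTL and at 47.3, 44.1 and 45.4 CPM in Nelfb-/- libraries, higher in all 3 and also under 2-fold (0.77, SE 0.13, adjusted p = 0.013). Pcyt1b had the largest estimate of the list, 1.13 (SE 0.99, adjusted p = 0.47), at 0.27 to 4.15 CPM in CTL. It was 0.26 without CTL replicate 1 and 2.13 without CTL replicate 3, and passed without both CTL replicate 3 and Nelfb-/- replicate 1 (2.67, adjusted p = 0.0066).

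**Figure D5:**
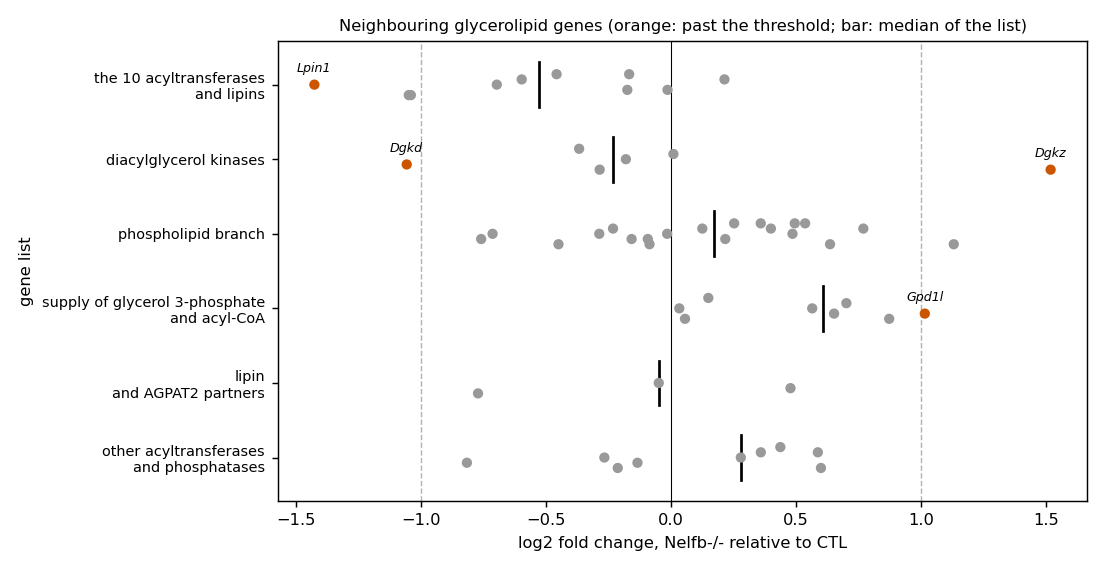
Log2 fold change in Nelfb-/- relative to CTL cells of each gene tested in the 5 neighbouring lists and of the 10 acyltransferases and lipins, with orange points past the threshold, bars at the list medians and dashed lines at a 2-fold change. The median is -0.53 for the 10 genes (-0.30 without Nelfb-/- replicate 1) and 0.61 for the supply genes (0.58 without that library), and Lpin1, Dgkd, Dgkz and Gpd1l are past the threshold.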

How the data were processed

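RNA-seq reads of 3 CTL and 3 Nelfb-/- cultures were aligned to mm10. The submitters' processing notes name STAR 2.7 and Partek 9.0.20.0202, and the study's methods credit DESeq2 with the alignment, leave out genes under 10 reads and use Partek for the comparison. Counting and its strand setting are not given in the sources used here. The authors deposited CPM with an offset of 0.0001 added, which was subtracted. Positions are those of the deposited table, with 1 subtracted from its stop, and had the same start and end in GENCODE vM21 (GRCm38) for 98.9% of 17548 matched genes. Exon lengths are from that annotation.

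The CPM worth of 1 read was read from the lowest values. Between 69.5% and 72.2% of values up to 20 reads were whole (within 0.02 reads), so no count test was run. Values were put on the scale of 22.3 M reads (M, 1e+06), the geometric mean depth, and log2(reads + 1) was fitted with limma 3.58.1 (R 4.3.3) with an abundance trend, over the 16252 genes averaging 10 reads (0.448 CPM) or more, with Benjamini-Hochberg adjustment over all of them. Tested on simulated data for this comparison over 16252 genes, it recovered 70 of 100 genes changed by 2 and 91 of 100 changed by 3 on the log2 scale, with 5 false calls. The simulated spread was drawn independently for each gene and library. It lacked the deviation that many genes share in CTL replicate 3 and Nelfb-/- replicate 1, so recovery and false calls in the data may differ. P-values measure the spread between these cultures.

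The 10 genes, the lists and the threshold were chosen with earlier results of these data known. Named genes are Nelfb, the 10 genes, every gene of the lists past the threshold, the 3 largest absolute changes of each list, and the 3 protein-coding genes nearest to each of the 10 that passed. Exceptions named after their values were seen are Lep, Fabp4, Gpd2, Acsl1, Agpat1, Egfl7, Gm42987 and 4930458D05Rik. The alternatives were 2 pseudocounts, 3 filters, 2 scalings, 3 variance models, a replicate block, no fold limit and leaving out each library. Leaving out CTL replicate 3 and Nelfb-/- replicate 1 together, and the sum over all AGPATs, were added after the data were seen.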

Additional observations from a re-analysis of the deposited data

How the results depend on the processing

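The log2 fold change of Lpin1 stayed negative under all 18 alternatives, from -1.98 to -1.26 (adjusted p 6.3e-06 to 0.13). Besides the single libraries, its call was lost with no moderation of the variance (-1.43, adjusted p = 0.11). No moderation left 684 genes, 0 of the 10 genes and 1 of the neighbouring lists past the threshold, against 1824, 1 and 3. Array weights, whose estimation stopped before its tolerance was reached, gave 4513, 2 and 8, with Lpin3 past the threshold (-1.13) and the sign turned for Agpat3 (0.10), Lpin2 (-0.017) and Ctdnep1 (0.052). Without both CTL replicate 3 and Nelfb-/- replicate 1, an alternative chosen after the data were seen, the counts were 4383, 2 and 7, Lpin1 was at -1.97 and Gpam at -0.65, Lpin3 passed (-1.08), and Agpat3 (0.16), Lpin2 (-0.18) and Ctdnep1 (0.073) turned sign. With no fold limit 2566 genes passed, of them 9 of the neighbouring lists. With 1 library left out, between 426 genes (without Nelfb-/- replicate 3) and 2479 genes (without CTL replicate 3) passed, of the 10 genes between 0 and 2, and of the lists between 0 and 5. Leaving out single libraries gave estimates of -1.73 to -1.26 for Lpin1, -1.08 to -0.47 for Dgat1, -0.52 to 0.032 for Gpam, -0.44 to -0.00090 for Gpat4, -0.092 to 0.11 for Agpat3, -0.12 to 0.46 for Lpin2, -0.81 to -0.11 for Lpin3 and -0.11 to 0.065 for Ctdnep1. The sign turned for Gpam (0.032) without CTL replicate 1, for Agpat3 (0.033) and Ctdnep1 (0.065) without CTL replicate 3, and for Agpat3 (0.11) and Lpin2 (-0.12) without Nelfb-/- replicate 1. The cause was not tested.

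Quantile normalization moved the median of all genes from 0.07 to -0.07 on the log2 scale, and 1014 genes rose and 834 fell, against 1232 and 592. In the neighbouring lists 1 gene then rose and 2 fell, as Plpp2 gained a call (-1.03) and Gpd1l was under 2-fold (0.93), as it was with median-of-ratios scaling (0.95). The call of Dgkd was lost with no abundance trend (adjusted p = 0.058) and with no moderation (adjusted p = 0.12), and that of Dgkz with no moderation (adjusted p = 0.092). In shares of reads with no length the difference between Nelfb-/- and CTL cells was -11.6 percentage points for Agpat2, 11.6 for Agpat3, 6.61 for Lpin2 and 0.98 for Lpin3, and with the longest transcript it was 6.43 for Lpin2, against -4.62, 4.62, 5.13 and 2.52. Over all 5 AGPATs the difference for Agpat2 was -9.71, and -3.67 without Nelfb-/- replicate 1.

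No pairing by replicate number was seen. The deviations of same-numbered libraries from their group means correlated at 0.52, -0.39 and 0.52, and CTL replicate 2 correlated best with Nelfb-/- replicate 1. These values cannot exclude a pairing, since deviations within a group of 3 constrain each other and CTL replicate 3 and Nelfb-/- replicate 1 stood apart. With a replicate block 2175 genes and 1 of the 10 passed (Lpin1, adjusted p = 0.015). Intervals for Gpat3, Agpat2, Lpin3, Dgat1 and Dgat2 reach past a 2-fold decrease, so a decrease of that size could not be told from no change with 3 libraries a group. The lowest level, 4.13 CPM of Lpin3, was above the 0.175 CPM that 3 reads were worth at most.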
